A study of Saccharomyces cerevisiae with 28 samples.

Results

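The genes described here are the 8 budding yeast genes ASC1, EFB1, TEF4, IMD4, NOG2, RPL7A, RPL7B and RPS22B, whose introns carry a small nucleolar RNA (snoRNA). They were taken from a list of known snoRNA hosts by a rule that uses no measured value, though the list was proposed with earlier results of these data known. They are 8 of the 982 genes and 24 of the 1457 probes that the array's annotation names. Each host has 3 probes, and all 24 passed the requirement of a value in every pair of arrays. In the RefSeq gene table each host's span contains its snoRNA: SNR24 in ASC1 (YMR116C, chromosome XIII), SNR18 in EFB1 (YAL003W, chromosome I), SNR38 in TEF4 (YKL081W, chromosome XI), SNR54 in IMD4 (YML056C, chromosome XIII), SNR191 in NOG2 (YNR053C, chromosome XIV), SNR39 in RPL7A (YGL076C, chromosome VII), SNR59 in RPL7B (YPL198W, chromosome XVI) and SNR44 in RPS22B (YLR367W, chromosome XII).

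A snoRNA guides the chemical modification of ribosomal or spliceosomal RNA. Most yeast snoRNAs have their own promoter, but those of the host genes are cut out of an intron, usually after the host's pre-mRNA has been spliced and the intron lariat opened. A host transcript therefore yields both an mRNA and a guide RNA. The hosts encode parts of the translation machinery or of its supply: Asc1 (the yeast RACK1), Rps22b, Rpl7a and Rpl7b sit in the ribosome, Efb1 and Tef4 are the alpha and gamma subunits of elongation factor 1B, Nog2 is a GTPase of large subunit assembly, and Imd4 is an inosine monophosphate dehydrogenase of GTP synthesis. SNR191 and SNR44 belong to the H/ACA box class, which guides pseudouridylation, and the other 6 to the C/D box class, which guides methylation of the ribose.

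The study used splicing-specific arrays to ask how loss of single non-essential genes changes splicing. Each of 8 deletion strains was set against wild type handled alike, by hybridising both RNAs to 1 array in one dye orientation and to another in the opposite one, and the series holds 28 such arrays. The strains csn12, YPR045C (the RefSeq name is THP3), ist3, csn9, pci8 and isy1 were in steady-state log phase growth and gave 1 pair of arrays each; the series' design text places log phase growth at 30 °C. The strains tgs1 and ynr004w (SWM2) gave 1 pair at 30 °C (0 min) and 3 pairs after a shift to 16 °C, at 10, 25 and 40 min. As background, Ist3 belongs to a splicing factor complex that helps hold pre-mRNA in the nucleus, Isy1 to the Prp19-associated complex of the spliceosome, and Tgs1 trimethylates the caps of spliceosomal RNAs and of independently transcribed snoRNAs, with Swm2 as a partner. Thp3 and Csn12 form a complex that acts in transcription, and Csn12, Csn9 and Pci8 are tied to the yeast COP9 signalosome. The genotype labels give only the name of the missing gene; the strain background, the mating type, the number of clones and any sharing of a wild-type RNA between strains go unstated.

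Each array held 9216 spots, of which 8893 to 9199 had a value, and each probe was printed 6 times. Values are log2 ratios of mutant over wild type. This direction is the likely one, because channel 1 held the mutant on every array, but no label states it, nor the base of the logarithm. The dyes left a strong mark: the mean profiles of the 2 dye orientations correlated at r = -0.54 across probes, and only once these means were removed did 12 of the 14 pairs correlate above 0. The exceptions were csn9 (r = -0.09) and tgs1 at 30 °C (r = -0.37), whose arrays did not run together after this step. As deposited, 4 pairs correlated above 0, csn9 weakly among them (r = 0.09), and tgs1 at 30 °C stood at r = -0.57. The genes deleted gave no clear check of the strain labels. Of the 8, 5 have no probe, and IST3 stood at 0.15 in ist3 and ISY1 at -0.12 in isy1 (adjusted p = 0.091 and 0.163). TGS1 was called lower in tgs1 at 16 °C (-0.28, adjusted p = 0.000258, and 0.0263 in the single-array test described below). Its arrays there ranged from -1.16 to 0.51. At 30 °C TGS1 was not called, and its arrays ranged from -0.86 to 0.67. Whether these probes lie inside the deleted stretch was not tested. Mating type genes separated the strains. All 4 alpha-cell genes (MF(ALPHA)1, MF(ALPHA)2, STE3, MATALPHA1) were called higher in YPR045C and ist3, with medians of 3.51 and 2.74, and lower in tgs1 and ynr004w at both temperatures, with medians between -2.38 and -1.53. The measured a-cell genes, MFA1 and MFA2, went the other way in each. Both were also called lower in csn12, where MATALPHA1 was called higher (1.06). There MF(ALPHA)1, MF(ALPHA)2 and STE3 were not called (0.06, -0.29 and 0.05). In isy1 MFA2 and MATALPHA1 were both called higher (0.63 and 0.34). In pci8 MFA2 was called lower (-0.35) and MF(ALPHA)1 higher (0.61). The other markers were not called in isy1 or pci8, and none was in csn9. The part of these marker differences in the host gene values was not tested.

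A call below is an adjusted p under 0.05 from limma's moderated test of the pair means against 0, with Benjamini-Hochberg adjustment over all 1456 probes with a value in every pair. Where a pair of array values is given, the array with the mutant in Cy5 comes first. Errors are standard errors from that fit, with 1 pair a group except for the 16 °C groups, which have 3. The groups of 1 pair borrow their spread from the time points at 16 °C, which is narrow beside the gap between dye orientations. A second test is therefore given beside that fit: limma over the 28 arrays singly with a term for the dye, named the single-array test. It called fewer probes in every group, though its p-value is smaller for some of the largest differences. It counts the arrays of a pair as separate replicates, so its p-values do not measure a spread between cultures. Separate cultures are not recorded for the arrays of 1 pair. The spread within a group may therefore be technical, and over pair means it also holds any change between the times at 16 °C.

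The 3 probes of a host did not move as one. The probes of 220 genes, all 8 hosts among them, were put into 3 classes, called A, B and C here. In each gene the well positions link the probes called A and B, and the remaining probe is C. The links are of several kinds, with 97, 91, 18 and 14 genes. Splicing arrays of this kind carry probes to an intron, to the junction of exons and to an exon. No source used here says which class is which, so the letters name no target. For each kind of link by itself, A went to the linked wells with the higher median in ist3 over genes that are not hosts. This choice was made after the data were seen. The medians lay closest in the kind with 14 genes, at 0.07 and -0.12. Across the 10 groups the hosts gave 240 probe values, of which 82 (34.2%) were called, where 4387 of the 14560 values of all probes (30.1%) were. Of the 82 host calls, 48 also passed the single-array test.

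**Figure D1:**
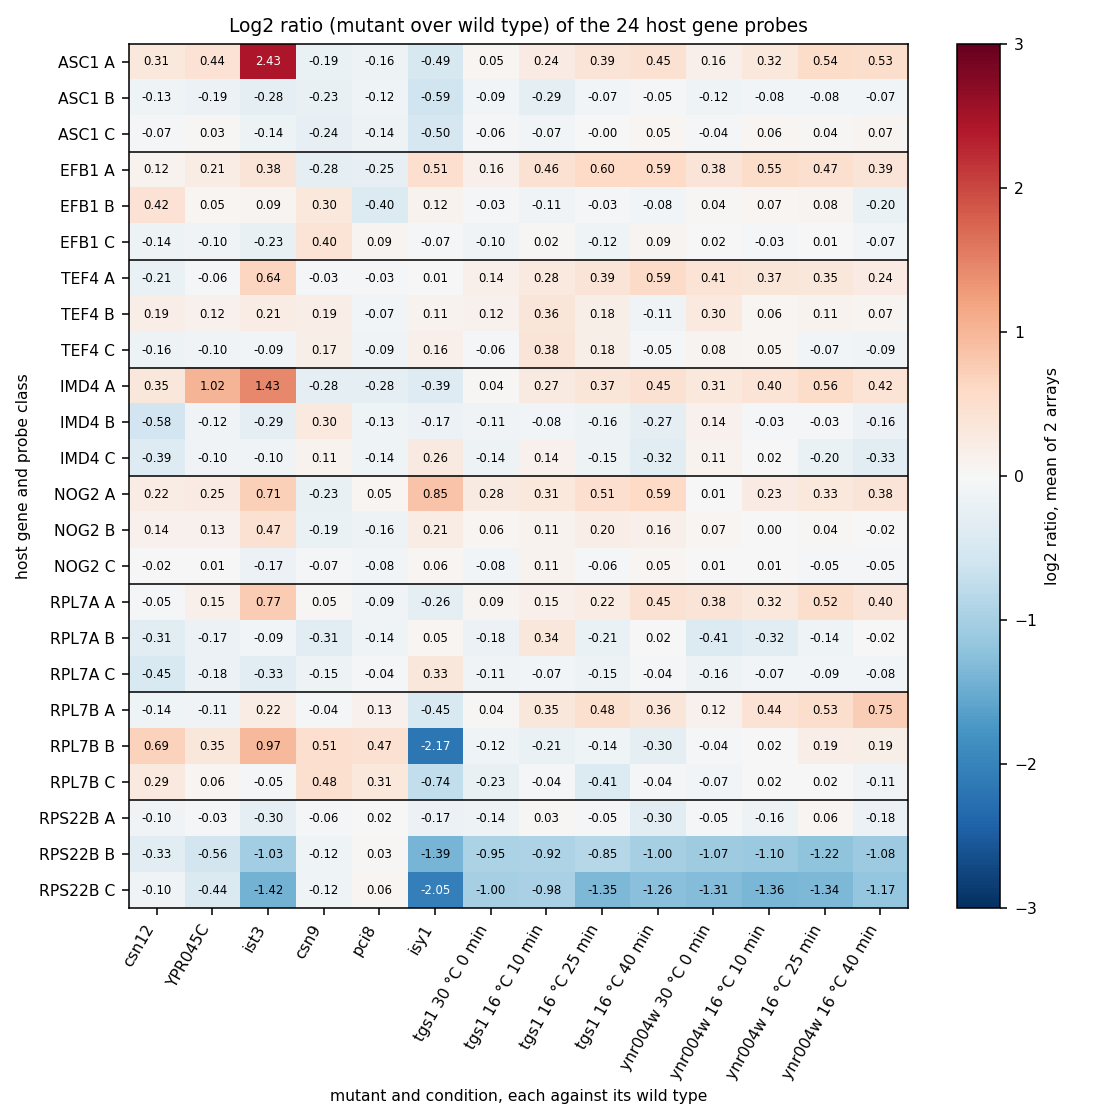
Log2 ratio (mutant over wild type) of the 24 host gene probes, 1 row per gene and probe class, in the 14 pair means, 1 column per mutant and condition. Class A of ASC1 and IMD4 is high in ist3 (2.43 and 1.43), and classes B and C of RPS22B are low in ist3, isy1, tgs1 and ynr004w while its class A runs from -0.30 to 0.06.

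In ist3 cells the class A probes of most hosts were high and RPS22B was low. ASC1 class A was higher by 2.43 ± 0.10, IMD4 class A by 1.43 ± 0.08, RPL7A class A by 0.77 ± 0.10 and NOG2 class A by 0.71 ± 0.09, whereas RPS22B class C stood at -1.42 ± 0.11 and its class B at -1.03 ± 0.08. In all, 8 host probes were called higher and 7 lower, 15 of 24, where 57.4% of all probes were called, 25.9% higher and 31.5% lower. The single-array test called 11 host probes, where it called 19.2% of all probes. Among class A probes, 6 of the 8 hosts were called higher and 1 lower, where 64.5% of the 220 class A probes were called higher and 6.82% lower. Because A was given to the higher ist3 medians, the shares and medians over all class A probes are partly fixed by the lettering here. The median over host class A probes was 0.67, against 0.35 over all class A probes. Over the class A probes of the 126 ribosomal protein genes, which include RPL7A, RPL7B and RPS22B, it was also 0.67.

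ASC1 class A read 2.24 with the mutant in Cy5 and 2.62 with the mutant in Cy3. Both arrays were far above 0, and the probe ranked first of the 220 class A probes and 3rd of all 1456 in ist3 (adjusted p = 3.51e-08; single-array adjusted p = 4.43e-12). Its class B and C probes did not share the rise. ASC1 class B read -0.36 and -0.21 and was called lower (-0.28 ± 0.08, adjusted p = 0.0155), which the single-array test did not call (adjusted p = 0.147). ASC1 class C read -0.29 and 0.01. Class A thus exceeded the mean of the other ASC1 probes by 2.64 ± 0.10, the top of the 699 probes that have at least 2 companions of the same gene.

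IMD4 class A read 1.56 and 1.301 in ist3, both high (adjusted p = 5.21e-07), while its class B read -0.75 and 0.17 and its class C -0.37 and 0.17, each split by the dye. RPL7A class A read 1.04 and 0.49 (adjusted p = 0.000138) and NOG2 class A 0.63 and 0.78 (adjusted p = 0.000153). These 3 class A calls also passed the single-array test. NOG2 differed from ASC1 and IMD4 in that its class B was also high, at 0.44 and 0.49 (0.47 ± 0.06, adjusted p = 0.000204). Only NOG2 and RPL7B, of the 8 hosts, had a class B probe called higher in ist3. RPL7B class B read 0.78 and 1.17 (0.97 ± 0.08, adjusted p = 7.27e-06), and RPL7B class A, at 0.53 and -0.10, was not called (0.22 ± 0.10).

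The elongation factor subunits were less clear. TEF4 class A read 1.51 with the mutant in Cy5 and -0.22 with the mutant in Cy3, and EFB1 class A 0.90 and -0.15. Their means, 0.64 ± 0.10 and 0.38 ± 0.08, were called, but the arrays of each pair lay on opposite sides of 0. The remaining calls in ist3 were small: EFB1 class C at -0.23, IMD4 class B at -0.29 and RPL7A class C at -0.33. EFB1 class C is not called from the array with the mutant in Cy5 alone, where it read -0.02.

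RPS22B went down in ist3 on every probe. Its class C read -1.72 and -1.11, its class B -0.63 and -1.43, and its class A -0.36 and -0.23. Class C ranked 4th and class B 6th from the bottom of the 1456 probes (adjusted p = 5.83e-06 and 2.81e-06), and both passed the single-array test. The class A call (-0.30 ± 0.11, adjusted p = 0.0423) is lost in that test (adjusted p = 0.0635) and on the array with the mutant in Cy3 alone. Because class A was the least lowered, it still exceeded the mean of the other 2 probes by 0.93 ± 0.13 (adjusted p = 2.42e-05).

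In isy1 cells RPL7B and RPS22B were low and NOG2 class A was high. RPL7B class B was at -2.17 ± 0.08, RPS22B class C at -2.05 ± 0.11 and RPS22B class B at -1.39 ± 0.08, all called, whereas NOG2 class A was higher by 0.85 ± 0.09. Of the host probes 4 were called higher and 9 lower, 13 of 24, with 42.9% of all probes called, 19% higher and 24% lower. The single-array test called 12 of the 13, with 18.2% of all probes called. Among class A probes 2 hosts were called higher and 3 lower, where 33.2% of class A probes were called higher and 9.55% lower.

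RPL7B class B read -2.60 with the mutant in Cy5 and -1.74 with the mutant in Cy3. This was the lowest of all 1456 probes in isy1 (adjusted p = 1.81e-08; single-array adjusted p = 2.41e-07). RPL7B class C read -0.53 and -0.95 (-0.74 ± 0.12, adjusted p = 0.000442) and class A -0.27 and -0.63 (-0.45 ± 0.10, adjusted p = 0.00351), so that all 3 probes of the gene were low on both arrays. Within the gene, class B lay below its companions by more than any other of the 699 probes did (-1.58 ± 0.11, adjusted p = 7.75e-08).

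RPL7A, the paralogue of RPL7B, did not follow it. RPL7A class C read 0.28 and 0.38 in isy1 and was called higher (0.33 ± 0.07, adjusted p = 0.00207), and its class A (-0.08 and -0.45) and class B (-0.12 and 0.21) were not called. The paralogues encode nearly identical proteins, and whether their probes cross-hybridise was not tested.

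RPS22B class C read -2.50 and -1.60 in isy1, 3rd from the bottom of all probes (adjusted p = 3.42e-07), and class B -1.39 on both arrays (adjusted p = 2.6e-07). RPS22B class A read -0.10 and -0.23 and was not called. The arrays of each lowered probe lay far from the class A arrays, with no overlap. Class A therefore exceeded the mean of classes B and C by 1.56 ± 0.13 (adjusted p = 3.06e-07; single-array adjusted p = 4.43e-09), 8th of the 699 probes.

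NOG2 class A read 0.77 and 0.93 in isy1, 5th of the 220 class A probes (adjusted p = 3.81e-05), with class B at 0.26 and 0.17 (0.21 ± 0.06, adjusted p = 0.0219; 0.0703 in the single-array test) and class C at 0.13 and -0.0015. EFB1 class A read 0.96 and 0.06, so its call (0.51 ± 0.08) came from the array with the mutant in Cy5. It is lost on the other array alone. ASC1, which led in ist3, was low in isy1 on all probes: class A read -0.60 and -0.37, class B -0.16 and -1.02, and class C -0.33 and -0.68, with means of -0.49, -0.59 and -0.50. The class B call is lost without the array with the mutant in Cy3, leaving -0.16. IMD4 class A was also lower (-0.51 and -0.27; -0.39 ± 0.08, adjusted p = 0.00321). The ASC1 and IMD4 class A probes thus lay above wild type in ist3 and below it in isy1, on every array; the difference between the strains was not tested.

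**Figure D2:**
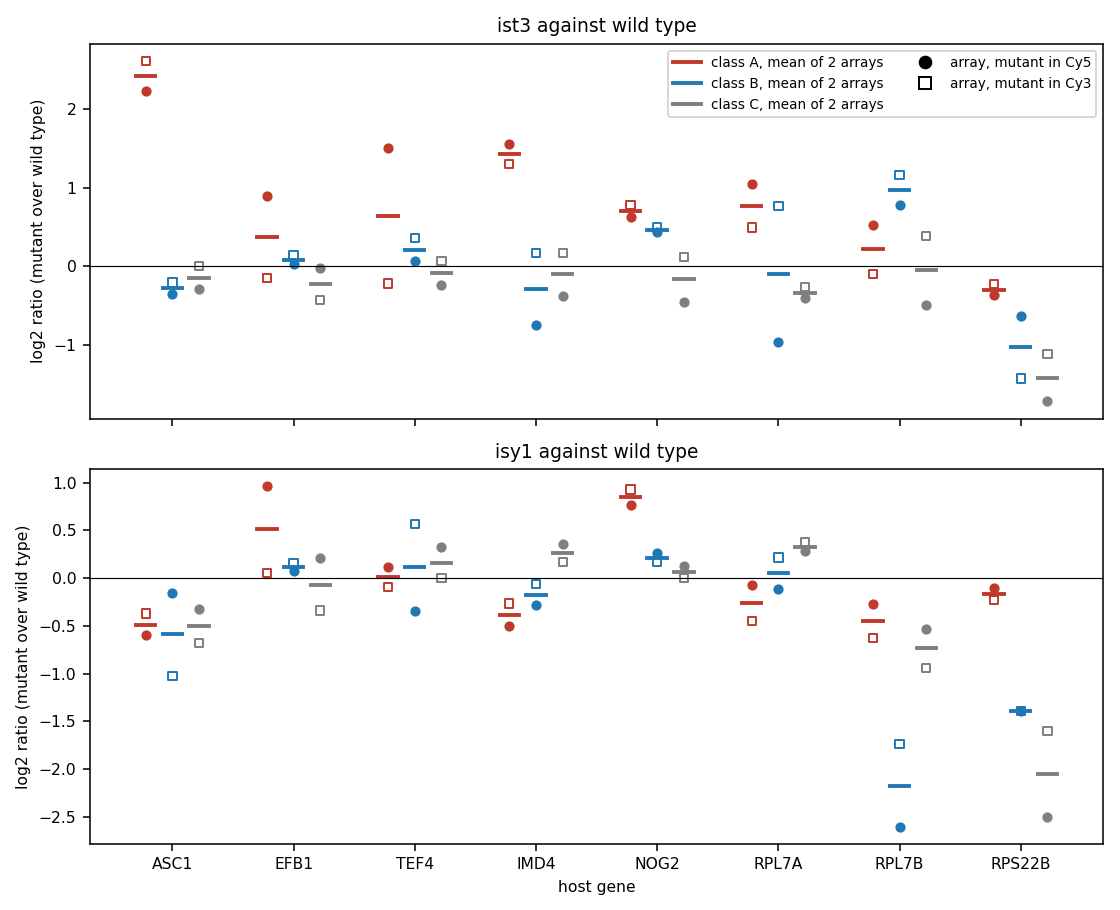
Log2 ratio (mutant over wild type) of each host gene probe on each array of ist3 and isy1; the x axis gives the gene, and colours mark the probe class, symbols the dye that labelled the mutant, and bars the mean of 2 arrays. ASC1 class A sits at 2.24 and 2.62 in ist3 and at -0.60 and -0.37 in isy1, and RPL7B class B at 0.78 and 1.17 in ist3 and at -2.60 and -1.74 in isy1.

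In YPR045C cells IMD4 was the host that stood out. Its class A probe read 0.96 with the mutant in Cy5 and 1.09 with the mutant in Cy3. Both arrays were high and close together, and the mean of 1.02 ± 0.08 was the highest of the 220 class A probes and 5th of all probes in that strain (adjusted p = 2.27e-05; single-array adjusted p = 1.82e-06). IMD4 class B read -0.34 and 0.11 and class C -0.22 and 0.02. The excess of class A over them, 1.13 ± 0.15, was the top of the 699 probes (adjusted p = 0.000499; single-array adjusted p = 0.00175). Of the host probes, 3 were called higher and 2 lower, 5 of 24, with 14.5% of all probes called, 6.46% higher and 8.04% lower. IMD4 class A alone passed the single-array test, which called 1.17% of all probes.

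The other calls in YPR045C were weaker. ASC1 class A read 0.18 and 0.70 (0.44 ± 0.10, adjusted p = 0.013), RPL7B class B 0.20 and 0.49 (0.35 ± 0.08), RPS22B class B -0.10 and -1.02 (-0.56 ± 0.08) and RPS22B class C -0.72 and -0.15 (-0.44 ± 0.12). Each had one sign on both arrays, and each loses its call when 1 array is left out: the first 3 without the array with the mutant in Cy3, and RPS22B class C without the other.

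In csn12 cells the host changes were modest and mixed. RPL7B class B was higher by 0.69 ± 0.08 (0.66 and 0.71), IMD4 class B lower at -0.58 ± 0.08 (-0.78 and -0.37) and RPL7A class C lower at -0.45 ± 0.07 (-0.55 and -0.35). Of the host probes 4 were called higher and 3 lower, 7 of 24, with 30.7% of all probes called, 13.3% higher and 17.4% lower. Just IMD4 class B and RPL7A class C passed the single-array test (adjusted p = 0.00682 and 0.00476), which called 6.66% of all probes. IMD4 class A was higher on both arrays (0.17 and 0.53; 0.35 ± 0.08), and its excess over the other IMD4 probes, 0.83 ± 0.15, ranked 5th of the class A probes (adjusted p = 0.00136; single-array adjusted p = 0.0161). Without the array with the mutant in Cy3 the call on IMD4 class A itself is lost. EFB1 class B read 0.39 and 0.45 (0.42 ± 0.09), a call that the single-array test did not make (adjusted p = 0.269). RPS22B class B (-0.01 and -0.66) and ASC1 class A (-0.0011 and 0.62) owed their calls to the array with the mutant in Cy3.

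In csn9 and pci8 no host probe was called by both tests. In csn9, 5 host probes were called higher and 3 lower, 8 of 24 with 20.5% of all probes called (10.9% higher, 9.62% lower). In pci8 the counts were 1 higher and 3 lower, 4 of 24 with 28% of all probes called (15.5% higher, 12.6% lower). The single-array test called 0 host probes in either strain, where it called 2.27% of all probes in csn9 and 2.82% in pci8. At an unadjusted p under 0.05 it had 8 of 24 host probes in csn9 and 3 of 24 in pci8, where 190 and 234 of all 1456 probes were. RPL7B class B was the most raised host probe in both: it read 0.49 and 0.54 in csn9 (0.51 ± 0.08, adjusted p = 0.00223; 0.333 in the single-array test) and 0.32 and 0.61 in pci8 (0.47 ± 0.08, adjusted p = 0.00265; 0.324). RPL7B class C read 0.43 and 0.54 in csn9 (0.48 ± 0.12). The remaining csn9 calls were EFB1 class C (0.63 and 0.17; 0.40 ± 0.08), EFB1 class B (0.32 and 0.29), IMD4 class B, which was split by the dye, and ASC1 class C, which was lower (-0.26 and -0.21). EFB1 class C loses its call without the array with the mutant in Cy5. In pci8 EFB1 class B was called lower (-0.40 ± 0.09) from arrays at -0.99 and 0.18. EFB1 class A was low in both strains (-0.10 and -0.47 in csn9, -0.02 and -0.49 in pci8), as was IMD4 class A (-0.36 and -0.21 in csn9, -0.31 and -0.26 in pci8). The pair means of EFB1 class A, -0.28 and -0.25, lose their calls without the array with the mutant in Cy3, and that of IMD4 class A in csn9 (-0.28) without the array with the mutant in Cy5. Within EFB1, class A lay below the mean of its companions in csn9 (-0.64 ± 0.10, adjusted p = 0.00175; single-array adjusted p = 0.0243), 4th from the bottom of the 699 probes.

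RPL7B class B was called in each of the 6 log phase strains. It was called higher in ist3 (0.97), csn12 (0.69), csn9 (0.51), pci8 (0.47) and YPR045C (0.35) and lower in isy1 (-2.17). The standard error of each value is 0.08, the order among the 5 raised strains was not tested, and only the ist3 and isy1 values passed the single-array test. In tgs1 and ynr004w this probe was split by the dye. At 16 °C it read -1.07, -0.67 and -0.82 in tgs1 with the mutant in Cy5, against 0.66, 0.40 and 0.22 with the mutant in Cy3, so its mean there carries little.

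**Figure D3:**
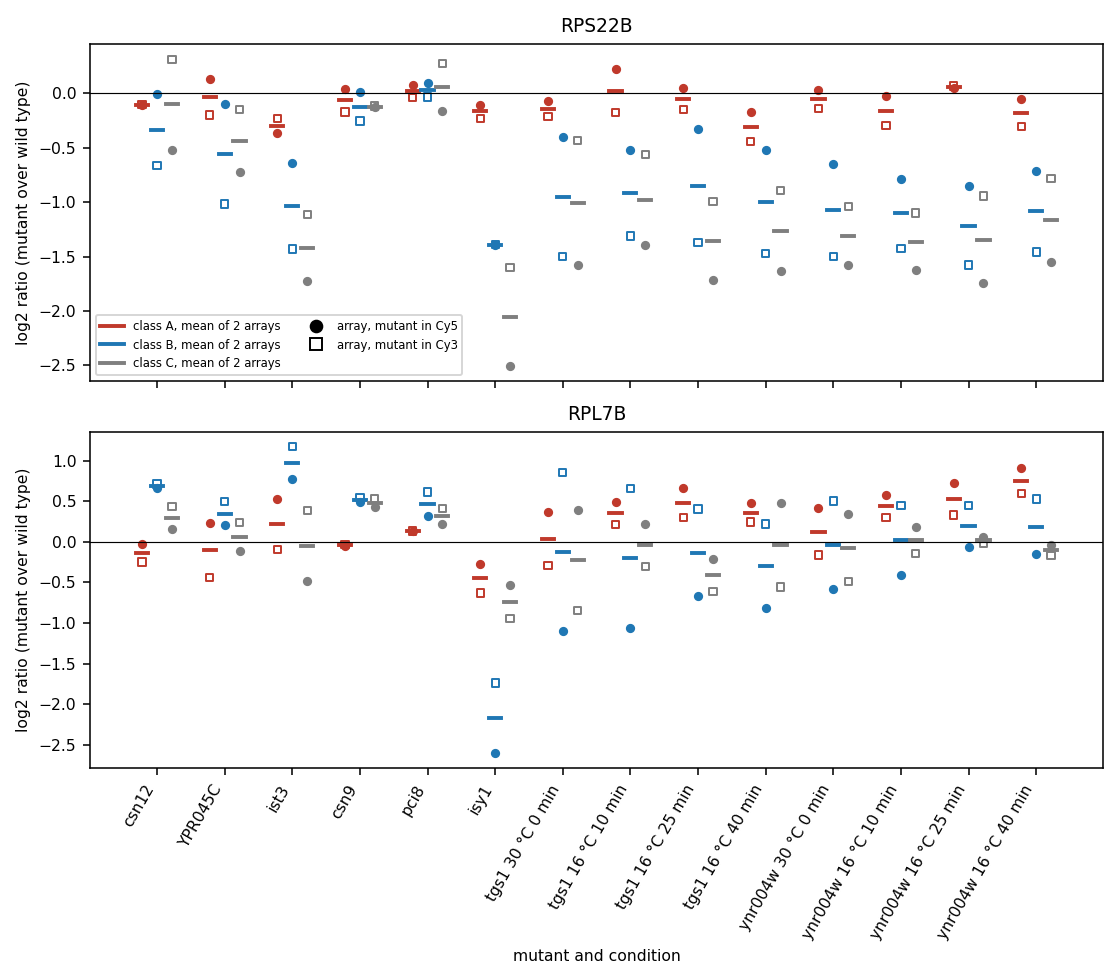
Log2 ratio (mutant over wild type) of the RPS22B and RPL7B probes on each array in all 10 groups; with the times at 16 °C apart; colours mark the probe class, symbols the dye that labelled the mutant, and bars the mean of 2 arrays. RPS22B classes B and C lie below 0 on every array of ist3, isy1, tgs1 and ynr004w, and RPL7B class B is below 0 on both arrays of isy1 (-2.60 and -1.74).

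RPS22B was low in several strains. Its class B and class C probes were called lower in ist3, isy1, YPR045C and in tgs1 and ynr004w at both temperatures, and apart from YPR045C every one of those calls passed the single-array test. The gene encodes a protein of the small ribosomal subunit and has more than one intron. In tgs1 at 30 °C class B read -0.40 with the mutant in Cy5 and -1.50 with the mutant in Cy3 (-0.95 ± 0.08, adjusted p = 2.8e-05), and class C -1.57 and -0.43 (-1.003 ± 0.11, adjusted p = 0.000396). In ynr004w at 30 °C class B read -0.65 and -1.50 (-1.07 ± 0.08, adjusted p = 8.09e-06) and class C -1.58 and -1.04 (-1.31 ± 0.11, adjusted p = 5.47e-05). The dye moved classes B and C in opposite directions, yet each array of each pair lay below 0.

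At 16 °C the arrays of RPS22B class B in tgs1 ran from -1.47 to -0.32 and those of class C from -1.71 to -0.56. The means were -0.92 ± 0.04 and -1.20 ± 0.07 (adjusted p = 7.78e-08 and 2.34e-07). In ynr004w class B ran from -1.58 to -0.71 and class C from -1.74 to -0.78, with means of -1.13 ± 0.04 and -1.29 ± 0.07 (adjusted p = 1.56e-08 and 1.54e-07). None of the 12 arrays at 16 °C was above 0 for either probe. In the 6 groups of ist3, isy1, tgs1 and ynr004w both probes ranked among the 10 lowest of 1456.

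RPS22B class A did not share this. Over the 14 pair means it ran from -0.30 to 0.06, and it was called only in ist3. Relative to the other RPS22B probes it was therefore high: by 0.83 ± 0.13 in tgs1 and 1.14 ± 0.13 in ynr004w at 30 °C, and by 0.95 ± 0.07 and 1.12 ± 0.07 at 16 °C. In ynr004w at 30 °C this was the top of the 699 probes. All 4 differences passed both tests, with single-array adjusted p of 0.000248 or less. In pci8 and csn9 no RPS22B probe was called, with class B at 0.03 and -0.12 and class C at 0.06 and -0.12.

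Apart from RPS22B, the calls on hosts in tgs1 and ynr004w were mostly class A probes, and more were made at 16 °C, where 3 pairs give a smaller error than the 1 pair at 30 °C and where more of all probes were called too. In tgs1 at 30 °C the calls were the 2 lowered RPS22B probes alone (2 of 24), with 11.5% of all probes called, 6.32% higher and 5.15% lower. In ynr004w at 30 °C 4 were higher and 2 lower (6 of 24), with 10.4% of all probes called, 4.88% higher and 5.56% lower. At 16 °C 8 were higher and 5 lower in tgs1 (13 of 24), with 49.7% of all probes called, 23.3% higher and 26.4% lower. In ynr004w at 16 °C 7 were higher and 2 lower (9 of 24), with 35.7% called, 17.2% higher and 18.5% lower. The single-array test called 2 host probes in each strain at 30 °C, with 2.54% of all probes called in tgs1 and 2.06% in ynr004w, and at 16 °C 10 in tgs1 (22.9%) and 8 in ynr004w (16.5%). Class A probes of 7 of the 8 hosts were called higher at 16 °C in each strain, all but RPS22B, where 66.8% of all class A probes were called higher in tgs1 and 63.6% in ynr004w. The host medians were 0.38 in tgs1 and 0.44 in ynr004w, beside 0.25 and 0.22 over all class A probes and 0.46 and 0.57 over those of the 126 ribosomal protein genes, a list that holds 3 of the hosts. The 4 higher calls in ynr004w at 30 °C were also class A probes, TEF4 (0.50 and 0.32; 0.41 ± 0.10), RPL7A (0.27 and 0.50; 0.38 ± 0.10), IMD4 (0.28 and 0.34; 0.31 ± 0.08) and EFB1 (0.81 and -0.05; 0.38 ± 0.08). None of the 4 passed the single-array test.

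EFB1 class A was the highest host class A probe in tgs1 at 16 °C (0.55 ± 0.04, adjusted p = 3.64e-06). It read 0.88, 1.03 and 1.03 at 10, 25 and 40 min with the mutant in Cy5 and 0.05, 0.17 and 0.14 with the mutant in Cy3. All 6 arrays were above 0, but the dye orientations did not overlap. NOG2 class A depended less on the dye, at 0.27, 0.49 and 0.56 with the mutant in Cy5 and 0.34, 0.53 and 0.61 with the mutant in Cy3 (0.47 ± 0.05, adjusted p = 4.31e-05). In both orientations the 10 min array was the lowest. ASC1 class A was the reverse of EFB1, with -0.09, 0.03 and 0.11 in Cy5 and 0.56, 0.75 and 0.79 in Cy3. The other class A means in tgs1 were 0.42 for TEF4, 0.40 for RPL7B, 0.36 for IMD4 and 0.27 for RPL7A. Outside class A and RPS22B the calls in tgs1 were small, NOG2 class B at 0.16 and, on the lower side, ASC1 class B at -0.14, IMD4 class B at -0.17 and RPL7B class B at -0.21, and of these NOG2 class B alone passed the single-array test.

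RPL7B class A was the highest of the hosts in ynr004w at 16 °C (0.57 ± 0.06, adjusted p = 1.49e-05), and its arrays read 0.57, 0.72 and 0.91 with the mutant in Cy5 and 0.30, 0.33 and 0.59 with the mutant in Cy3. IMD4 class A (0.46 ± 0.05) read 0.27 to 0.34 in Cy5 and 0.53 to 0.78 in Cy3. RPL7A class A (0.41 ± 0.06) ran from 0.18 to 0.64 over the 6 arrays. All of these arrays were above 0, as were those of NOG2 (0.31 ± 0.05, 0.21 to 0.41). ASC1 and EFB1 class A averaged 0.46 and 0.47, each with arrays on both sides of 0. TEF4 class A (0.32 ± 0.05) was not called by the single-array test (adjusted p = 0.107), its arrays lying at 0.63 to 0.89 in Cy5 and -0.16 to -0.01 in Cy3.

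The pair means of class A were lowest at 30 °C for 7 of the 8 hosts in tgs1, all but RPS22B, and for 5 in ynr004w. ASC1 stood at 0.05 at 30 °C and at 0.24, 0.39 and 0.45 after 10, 25 and 40 min at 16 °C, TEF4 at 0.14, 0.28, 0.39 and 0.59, and IMD4 at 0.04, 0.27, 0.37 and 0.45. NOG2 (0.28, 0.31, 0.51 and 0.59) and RPL7A (0.09, 0.15, 0.22 and 0.45) had the same order. These 5 hosts had their highest value at 40 min, whereas EFB1 (0.16, 0.46, 0.60 and 0.59) and RPL7B (0.04, 0.35, 0.48 and 0.36) were highest at 25 min. In ynr004w ASC1 (0.16, 0.32, 0.54 and 0.53), NOG2 (0.01, 0.23, 0.33 and 0.38) and RPL7B (0.12, 0.44, 0.53 and 0.75) were lowest at 30 °C, while TEF4 was highest there (0.41, 0.37, 0.35 and 0.24).

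The difference between the temperatures did not pass for any host. Setting 16 °C against 30 °C, limma called 0 of 24 host probes in tgs1, with 0.481% of all probes called, and 0 of 24 in ynr004w, with 0% called. At an unadjusted p under 0.05 there were 5 of 24 host probes in tgs1 and 4 of 24 in ynr004w, near the 18.8% and 12.8% of all probes. The single-array test also called 0 in each (0% of all probes), with 3 and 2 at an unadjusted p under 0.05, where 3.5% and 3.02% of all probes were. Each strain has 1 pair at 30 °C, and in tgs1 its arrays do not run together. With 1 array of the 30 °C pair left out, 14 to 16 host probes in tgs1 and 8 to 9 in ynr004w were called; a single array keeps the dye effect.

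**Figure D4:**
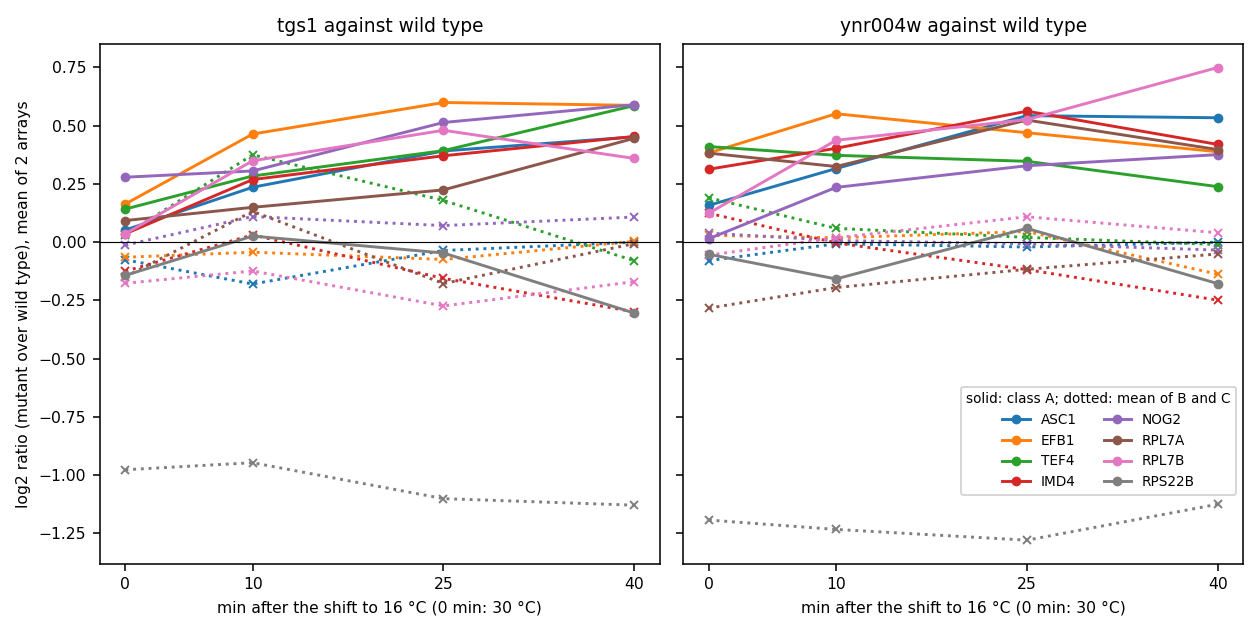
Pair means of the log2 ratio (mutant over wild type) against minutes after the shift to 16 °C (0 min is 30 °C) in tgs1 and ynr004w, 1 colour per host gene; solid lines are class A and dotted lines the mean of classes B and C. Class A of 7 hosts lies above 0 at every time at 16 °C, RPS22B class A lies near 0, and the dotted RPS22B line lies lowest.

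Comparing probes of the same gene removes what they share. In tgs1 class A exceeded the mean of the other probes in 8, 7, 8 and 8 of the 8 hosts at 30 °C and after 10, 25 and 40 min at 16 °C, with medians of 0.22, 0.33, 0.48 and 0.56. In ynr004w it did so in 7, 8, 8 and 8, with medians of 0.23, 0.41, 0.49 and 0.53. It was called above its companions in 8 of 8 hosts at 16 °C in each strain. Of the 219 class A probes so tested, 78.1% in tgs1 and 76.3% in ynr004w were called above. TEF4 alone lost the call in the single-array test, in both strains (adjusted p = 0.158 and 0.114). The excess of ASC1 and of TEF4 did not keep one sign on every array at 16 °C in either strain. Counting all host probes, 8 of the 19 within-gene calls in tgs1 and 10 of the 22 in ynr004w kept one sign on every array there. At 30 °C, class A was called above in 1 host in tgs1 (RPS22B) and in 3 in ynr004w (RPS22B, RPL7A and EFB1). There 32.4% and 30.1% of class A probes were called above. The single-array test did not call EFB1 (adjusted p = 0.142). In ist3 class A was called above its companions in 7 of 8 hosts, all but RPL7B, where 74% were. That 74% is partly fixed by the lettering, because A was given to the higher ist3 medians. Here too TEF4 was lost in the single-array test (adjusted p = 0.0787). In isy1 class A was called above in 4 (RPS22B, RPL7B, NOG2 and EFB1) and below in 2 (RPL7A and IMD4), where 53% and 5.94% were. Both calls below were lost in the single-array test (adjusted p = 0.0883 and 0.11).

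A class A excess was called in both ist3 and isy1 for NOG2, RPS22B and EFB1, and in ist3 that of EFB1 was split by the dye. Taken singly, 74% of class A probes were called above in ist3 and 53% in isy1. The share called in both strains was not counted. NOG2 and RPS22B host H/ACA box snoRNAs and EFB1 a C/D box snoRNA. The snoRNA classes were not tested against each other. In csn9 the class A probes of EFB1, IMD4 and RPL7B were called below their companions (3 of 8, with 11.4% of class A probes), of which EFB1 alone passed the single-array test (adjusted p = 0.313 for IMD4 and 0.126 for RPL7B). In pci8 no host class A probe was called either way, with 4.57% above and 16.4% below. In YPR045C 3 were called above (IMD4, ASC1 and RPS22B; 17.4% of class A probes), and in csn12 2 above (IMD4 and ASC1; 19.6%) and 1 below (RPL7B; 7.31%). The single-array test lost ASC1 in both strains (adjusted p = 0.242 in YPR045C and 0.318 in csn12) and RPS22B in YPR045C (adjusted p = 0.131).

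**Figure D5:**
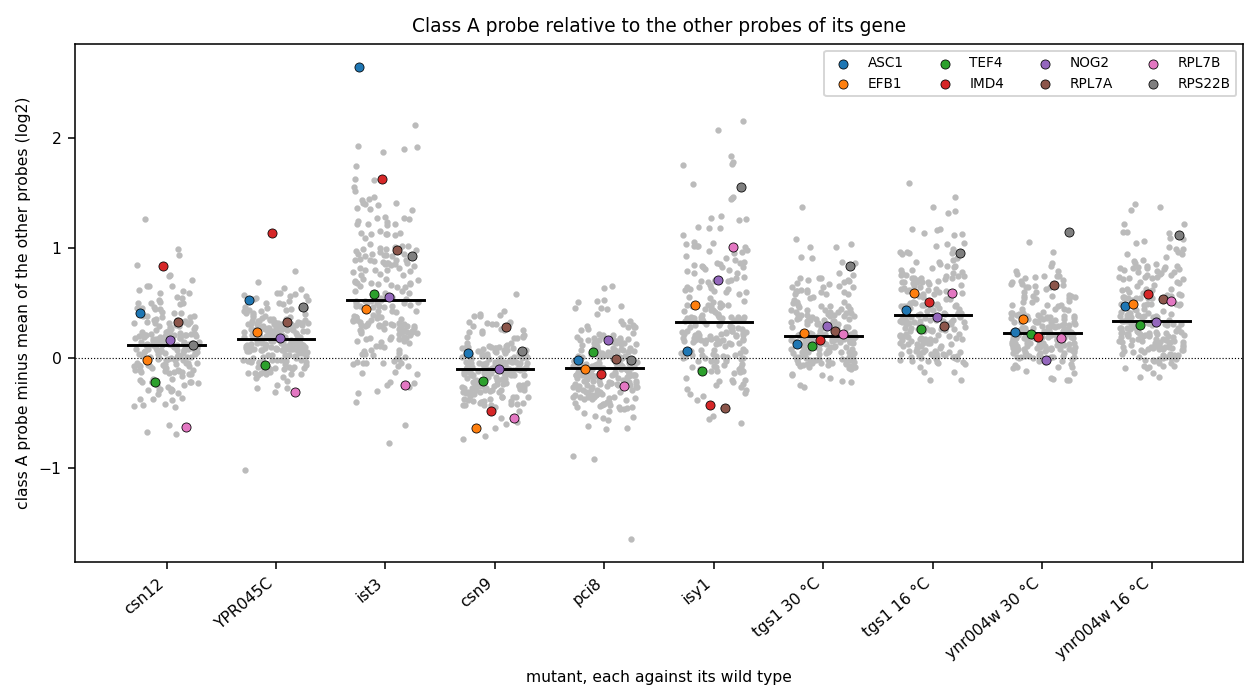
Class A probe minus the mean of the other probes of its gene (difference of log2 ratios, mutant over wild type), in the 10 groups; coloured points are the host genes, grey points the class A probes of all other genes, and bars the median over all class A probes. Among the hosts ASC1 is highest in ist3 (2.64) and RPS22B in isy1 (1.56), tgs1 and ynr004w, and in csn9 EFB1 lies lowest (-0.64).

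Of the hosts' paralogues the array names RPS22A and IMD3, with 1 probe each. IMD3 was higher in isy1 at 0.85 ± 0.08 (adjusted p = 1.58e-05; single-array adjusted p = 1.98e-06), where IMD4 class A was lower (-0.39) and its classes B and C, at -0.17 and 0.26, were not called. IMD3 was lower in csn12 at -0.38 ± 0.08 (adjusted p = 0.00619), as was IMD4 class B (-0.58); there IMD4 class C stood at -0.39, not called, and class A was higher (0.35), a call lost in the single-array test (adjusted p = 0.0781). RPS22A differed little where RPS22B was strongly lowered: it was called lower in isy1 (-0.27 ± 0.08), called higher in ist3 (0.25 ± 0.08), csn9 (0.29) and pci8 (0.38), and not called in tgs1 or ynr004w. The single-array test called none of the RPS22A values.

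Of 25 genes that make, trim or cap snoRNAs, 16 have a probe. They include core proteins of the C/D particles (NOP1, NOP56, NOP58, SNU13) and of the H/ACA particles (CBF5, GAR1, NHP2, NOP10), the nucleases RNT1, RAT1, XRN1 and RRP6, and the lariat debranching enzyme DBR1. In ist3 7 were called higher and 3 lower, where 57.4% of all probes were called. NOP56 (0.71 ± 0.09) and the exosome subunit RRP6 (0.69 ± 0.09) were the highest, and NOP10 (-0.28 ± 0.07) was the lowest with one sign on both arrays. RRP6, GAR1 and CBF5 alone passed the single-array test there. In csn12 1 was called higher and 2 lower, 3 of 16 where 30.7% of all probes were called, with NOP10 at -0.70 ± 0.07 (adjusted p = 7.1e-05; single-array adjusted p = 0.00596), and in isy1 1 was higher (XRN1, 0.28) and 2 lower (NHP2 at -0.50, which passed both tests, and NOP56), 3 of 16 where 42.9% of all probes were. In csn9 XRN1 (0.34), NHP2 (0.33), NOP10 (-0.35) and TGS1 (-0.28) led, in pci8 NHP2 (0.32) and XRN1 (0.26), and in ynr004w at 30 °C NOP58 (0.29) and CBF5 (0.26), none of them called in the single-array test. The counts were 2 higher and 1 lower in YPR045C (14.5% of all probes called), 3 and 2 in csn9 (20.5%) and 2 and 0 in pci8 (28%). They were 3 and 0 in tgs1 at 30 °C (11.5%), 4 and 2 in tgs1 at 16 °C (49.7%), and 3 and 0 in ynr004w at 30 °C (10.4%) and at 16 °C (35.7%). Of these last groups only tgs1 at 16 °C had calls in the single-array test, CBF5 at 0.17 and TGS1 at -0.28. TGS1 is the gene deleted in that strain. For CBF5 and for TGS1 the arrays there lay on both sides of 0. DBR1 and SNU13 were called in no group.

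Gene means over all 3 probes were also set against those of every gene outside the hosts over the 14 pair means. The pair means share strains, dyes and, for both strains shifted to 16 °C, the sampling times. The coefficients listed are the highest picked from all those genes, and how high selection alone would bring them was not tested. The most similar gene to RPL7B was RPL6B (r = 0.94, n = 14), followed by HTA1 (0.94) and CBC2 (0.93). All 3 RPL7B probes had their lowest pair mean in isy1 (-0.45, -2.17 and -0.74), and the weight of that pair in these coefficients was not tested. ASC1 was nearest to RPL27A (0.93), RPL40A (0.87) and RPS20 (0.86), and RPS22B to RPS25B, TUF1 and DOT6 (0.89 to 0.86). NOG2 was nearest to CTR9 (0.91), STM1 (0.90) and RPS8A (0.88), RPL7A to RPL39 (0.85), RPL38 (0.82) and RPS24A (0.81), and EFB1 to MEI4 (0.85), RCF3 (0.73) and RPL2A (0.66). TEF4 was nearest to CBF5 (0.83), DBP3 (0.77) and NMD2 (0.76), and IMD4 to YML6 (0.84), SNF11 (0.80) and DCP1 (0.78). Hosts were left out of these rankings, and no coefficient between hosts reached the lowest one listed (0.66). Between hosts the coefficient ran from -0.73 for NOG2 and RPS22B to 0.65 for ASC1 and RPL7B, and for the paralogues RPL7A and RPL7B it was -0.15.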

How the data were processed

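Total RNA from mutant and wild-type cells was compared on 2-colour spotted arrays. Per the labels, the 28 arrays form 14 pairs; channel 1 held the mutant throughout, first in Cy5, then in Cy3. The deposited table gives 1 value per spot, read here as a log2 ratio; how the authors scanned, corrected and normalised the arrays, the log base and the sign go unstated there. Array medians ran from -0.028 to 0.028. All table columns were mapped to samples by name. Of 1536 probes 1457 have 1 gene symbol, 79 none and 0 several; 982 of 982 gene identifiers matched the RefSeq table (assembly R64). The sources name no genome build and hold no sequences, so no coordinates or sequences are given.

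Values were centred by array medians, averaged over the 6 spots per probe, then over the 2 arrays per pair, because the exchange of dyes then cancels and a pair counts as 1 replicate. The limma package (3.58.1; R 4.3.3; lmFit, eBayes, 2-sided tests, Benjamini-Hochberg at 0.05) was applied to 14 pair means in 10 groups with 4 residual and 6.63 prior degrees of freedom (prior SD 0.077). The same model was fitted to each probe minus the mean of the other probes of its gene, for 699 probes of genes with at least 3. The alternative over 28 arrays has a dye term, which equals a block for the array number, 17 residual degrees of freedom, prior SD 0.200. Array numbers mark dye orientations, not cultures. Precision is limited by the number of arrays; the script was tested on simulated data.

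The hosts and the gene lists were chosen with earlier results of these data known. Probe classes were read from well positions after the data were seen, and A was told from B by ist3 values. By rule every host probe is accounted for, with array values for calls with one sign on every array; named besides are the paralogues, the 2 highest and 2 lowest called genes of the snoRNA list with one sign on every array, and the 3 genes most correlated with each host. The single snoRNA genes RNT1, RAT1, DBR1 and SNU13, and those that passed the single-array test, were named in addition. Other settings tried were the median over spots, a minimum of 4 spots, another centring, one common spread, and leaving out arrays or times.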

Additional observations from a re-analysis of the deposited data

Results flagged for a closer look

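Dixon's test was run on the 6 arrays of each host probe in both 16 °C groups, 48 tests. Its nominal rate of 5% assumes a single normal sample, whereas these arrays span several times and both dye orientations. The rate of flags by chance is therefore not known here, and a gap between the orientations can hide an outlier. The test marked 2 values. NOG2 class B in tgs1 at 10 min, with the mutant in Cy3, read 0.061, below the other 5 arrays, the nearest of which read 0.152 and the highest 0.205. RPL7A class A in tgs1 at 40 min, with the mutant in Cy5, read 0.639, above the other 5, the nearest of which read 0.258 and the lowest 0.046. Both probes are called higher in tgs1 at 16 °C.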

How the results depend on the processing

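Reversal was checked only for the named calls, those with one sign on every array, and none reversed under any setting tried. Leaving out arrays or times could not reverse such a call. Calls with arrays on opposite sides of 0 were not checked. Such calls can change sign when 1 array is left out, as TEF4 and EFB1 class A in ist3 do. The replicate block, that is 28 arrays entered singly with a dye term, cut the calls on host probes to 2 in csn12, 1 in YPR045C, 0 in csn9, 0 in pci8 and 2 in ynr004w at 30 °C. For differences within a gene it left 3 calls in csn12, 2 in YPR045C, 1 in csn9, 0 in pci8, 8 in isy1, 1 in tgs1 at 30 °C, 3 in ynr004w at 30 °C and 13 in ynr004w at 16 °C, against 8, 7, 5, 2, 14, 3, 6 and 22 over pair means. With all arrays scaled to one spread, 14 host probes were called in csn9 and 8 in pci8, and 9 and 4 within genes. With the median over spots, 1 host probe was called in tgs1 at 16 °C against 30 °C, and within genes 0 in pci8 and 5 in tgs1 at 30 °C. Another centring and a minimum of 4 spots kept every count within 1.5 times. Leaving out 1 array or time point gave 9 to 15 calls in csn12, 8 to 11 in YPR045C, 14 to 20 in ist3, 9 in csn9, 4 to 7 in pci8, 15 to 17 in isy1, 14 to 17 in tgs1 at 30 °C, 12 to 15 in tgs1 at 16 °C, 12 in ynr004w at 30 °C, 9 to 11 in ynr004w at 16 °C, 0 to 16 in tgs1 and 0 to 9 in ynr004w between temperatures. Within genes it gave 11 to 14 in csn12, 12 to 15 in YPR045C, 18 to 24 in ist3, 5 to 6 in csn9, 2 to 4 in pci8, 15 to 17 in isy1, 16 to 18 in tgs1 and 10 to 12 in ynr004w at 30 °C, and 15 to 23 in tgs1 and 15 to 20 in ynr004w at 16 °C. A single array keeps the dye effect. Of the 141 named calls over pair means, 51 were lost under the block, 2 under scaling, 2 with at least 4 spots, 5 under the other centring and 7 with the spot median. Depth is not given, and the number of pairs limits the precision.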
